A study of Mus musculus with 8 samples.

Results

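Accessible chromatin of EpCAM-high liver cells was compared between the CK19 and the Sox9 set, each represented by 1 deposited peak list. Peaks of both lists on the 19 autosomes were merged wherever they shared at least 1 bp, which gave 73360 regions, against 134740 regions when all 5 lists of the series were merged in the same way. A region built from peaks of one list is called CK19 only or Sox9 only here, and a region with peaks of each is called shared. The CK19-only class held 17024 regions, the Sox9-only class 18306 and the shared class 38030.

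The series covers mouse liver cells of the Rb family triple knockout model of hepatocellular carcinoma, profiled by bulk ATAC-seq, an assay that finds open chromatin by where a transposase can insert adapters. Cells came from liver or macroscopic lesions digested with enzymes and were taken by flow cytometry as YFP+, the reporter that marks Cre recombination of the floxed alleles, and by surface Thy1 and EpCAM. The labels list 8 samples in 5 groups, with 2 samples for EpCAM-high CK19 and 1 for EpCAM-high Sox9, both without treatment. Every group carries the same model and the same YFP gate, so no cells with an intact Rb family are compared. The labels do not say what CK19 and Sox9 stand for in the group names, which promoter drives Cre, how old the animals were, how many animals a library pools, or whether the 2 CK19 libraries were pooled for peak calling. The 3 further lists used for reference, which are Tumor Sox9 and a Prog-like list for each of CK19 and Sox9, have names that match no labelled group. With 1 list per set there is no replicate spread and no test: intervals given below are exact Clopper-Pearson 95% intervals of shares, which cover counting error only, and neighbouring regions are not independent.

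EpCAM is an adhesion protein of bile duct cells and liver progenitors, Krt19 (CK19) is a keratin of the bile ducts, and Sox9 is a transcription factor of bile duct and progenitor cells. In ATAC-seq, open sites at gene starts tend to be held in common by many cell types, while sites inside and between genes include enhancers, which differ more between cell states. The Rb family proteins Rb1, Rbl1 (p107) and Rbl2 (p130) restrain E2F factors and so the entry into the cell cycle.

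The name EpCAM-high was checked against marker genes, scoring a gene by whether a peak lay within 1000 bp of either of its ends. All 7 biliary markers had such a peak in both lists. For Epcam the authors' −log10 q, the significance the peak caller gave, was 49.8 for CK19 and 66.0 for Sox9, for Krt19 it was 9.001 and 18.2, for Sox9 45.1 and 123.8, and for Cftr, the chloride channel of duct cells, 54.2 and 48.1. Hepatocyte markers were open as well: 4 of 5 had a peak in both lists, among them Alb at 26.9 and 18.6 and Hnf4a at 47.0 and 23.2, and Cps1, a urea cycle enzyme, had none. Of 4 mesenchymal markers, Col1a1 had a peak in both lists, Acta2 in the Sox9 list alone at 6.17, and Pdgfrb and Thy1 in neither. No region of either list lay within 10 kb of Thy1, Cd3e, Adgre1, Lyz2 or Clec4f, and none of the 4 macrophage and 3 lymphocyte markers had a gene-end peak. Ptprc, the pan-leukocyte CD45 gene, did have one in both lists, at 29.8 and 6.35. A peak at the start of Rb1, Rbl1 or Rbl2 does not check a deletion inside the gene.

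Promoters that one list held and the other did not are shown first, because they place the difference at named genes. The 6 below were taken from RefSeq on GRCm38.p6, the assembly mm10 is based on, and each runs from 250 bases before to 50 after the transcription start, 5′ to 3′ on the gene's strand. Capitals mark matches, on either strand, to CEBP (TTGCNNAA), HNF1 (GTTAAT), TEAD (GGAATG) or GRHL (AACNGGTT), out of 12 motifs searched, and no matches overlap in these windows. Fga and Fgg encode fibrinogen chains, Lcn2 and S100a9 antimicrobial proteins of the acute phase, Tdo2 the hepatocyte enzyme that opens tryptophan degradation, and Umod uromodulin, a kidney protein.
Fga (Sox9 list alone, chr3:83025903-83026202, plus strand): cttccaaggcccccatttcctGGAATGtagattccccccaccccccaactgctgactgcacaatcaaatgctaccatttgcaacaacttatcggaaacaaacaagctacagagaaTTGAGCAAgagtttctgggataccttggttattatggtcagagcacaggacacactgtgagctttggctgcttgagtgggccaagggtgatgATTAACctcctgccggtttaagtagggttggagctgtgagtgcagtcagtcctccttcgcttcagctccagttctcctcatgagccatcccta
Fgg (Sox9 list alone, chr3:83007474-83007773, plus strand): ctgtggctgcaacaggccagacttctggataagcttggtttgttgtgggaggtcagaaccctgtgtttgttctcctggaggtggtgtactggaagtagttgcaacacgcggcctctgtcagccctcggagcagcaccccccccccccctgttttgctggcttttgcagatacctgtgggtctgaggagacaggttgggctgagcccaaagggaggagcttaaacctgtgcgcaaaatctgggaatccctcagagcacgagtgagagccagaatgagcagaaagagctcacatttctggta
Lcn2 (Sox9 list alone, chr2:32387690-32387989, minus strand): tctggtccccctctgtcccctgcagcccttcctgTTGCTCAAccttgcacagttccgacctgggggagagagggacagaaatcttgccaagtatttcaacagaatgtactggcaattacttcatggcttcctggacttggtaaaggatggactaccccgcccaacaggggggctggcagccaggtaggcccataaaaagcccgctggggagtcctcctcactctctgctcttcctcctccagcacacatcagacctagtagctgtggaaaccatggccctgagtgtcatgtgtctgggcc
S100a9 (Sox9 list alone, chr3:90695672-90695971, minus strand): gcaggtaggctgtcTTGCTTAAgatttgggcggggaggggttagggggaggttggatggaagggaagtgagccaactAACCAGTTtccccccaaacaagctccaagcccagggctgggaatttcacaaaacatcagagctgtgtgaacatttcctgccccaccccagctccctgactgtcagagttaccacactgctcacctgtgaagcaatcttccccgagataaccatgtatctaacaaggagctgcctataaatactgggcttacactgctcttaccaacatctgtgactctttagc
Tdo2 (CK19 list alone, chr3:81975679-81975978, minus strand): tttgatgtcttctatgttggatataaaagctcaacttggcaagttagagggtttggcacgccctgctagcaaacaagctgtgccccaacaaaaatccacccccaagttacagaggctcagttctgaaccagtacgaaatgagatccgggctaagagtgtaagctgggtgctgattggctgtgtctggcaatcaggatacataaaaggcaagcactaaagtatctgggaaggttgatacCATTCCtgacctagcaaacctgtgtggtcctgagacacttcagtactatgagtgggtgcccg
Umod (CK19 list alone, chr7:119479213-119479512, minus strand): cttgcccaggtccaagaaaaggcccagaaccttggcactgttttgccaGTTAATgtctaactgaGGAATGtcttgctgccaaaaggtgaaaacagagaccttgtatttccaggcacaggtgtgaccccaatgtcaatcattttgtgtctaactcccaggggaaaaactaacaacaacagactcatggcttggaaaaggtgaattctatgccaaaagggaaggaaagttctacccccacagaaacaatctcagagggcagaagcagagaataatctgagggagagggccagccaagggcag

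The Fga and Fgg promoters lay in Sox9-only regions. Fgb, also a fibrinogen gene, had no gene-end peak in either list and 1 shared region within 10 kb. The region over the Fga start, chr3:83025705-83026547, had a −log10 q of 15.7, and the one over the Fgg start had 12.4. Another Sox9-only region, chr3:83020263-83020768, lay between these genes, centred 5638 bp before the Fga start, with 43.9. The Tumor Sox9 list also had a peak at each of these Sox9-only regions, and neither Prog-like list did. A shared region lay 8470 bp before the Fgg start, at 20.9 in CK19 peaks and 7.23 in Sox9 peaks. Both Prog-like lists held it and the Tumor Sox9 list did not. Lcn2 had a Sox9-only region 310 bp before its start, at 13.7, between a pair of shared regions with values of 29.0 and 18.7 on one side and 19.1 and 15.7 on the other, CK19 given first. The S100a9 region was weaker, at 7.72, and no further list held it.

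On the CK19 side, the Tdo2 promoter region, centred 221 bp before the start, had a −log10 q of 55.2, and the Tumor Sox9 list also held it. A second region 7879 bp before the Tdo2 start was shared, at 54.3 in CK19 peaks and 10.8 in Sox9 peaks. The single region at Umod lay 183 bp before its start, at 13.01, with no peak in any further list. So a CK19-only promoter could sit beside open chromatin that both lists held, as at Tdo2, or be the sole open site of the locus, as at Umod. Spp1 (osteopontin), a marker both lists share, had 4 shared regions, the one over its start at 40.3 and 41.3, beside 1 weak CK19-only region at 3.28 and 2 Sox9-only regions, of which one 7930 bp after the start reached 24.2.

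**Figure D1:**
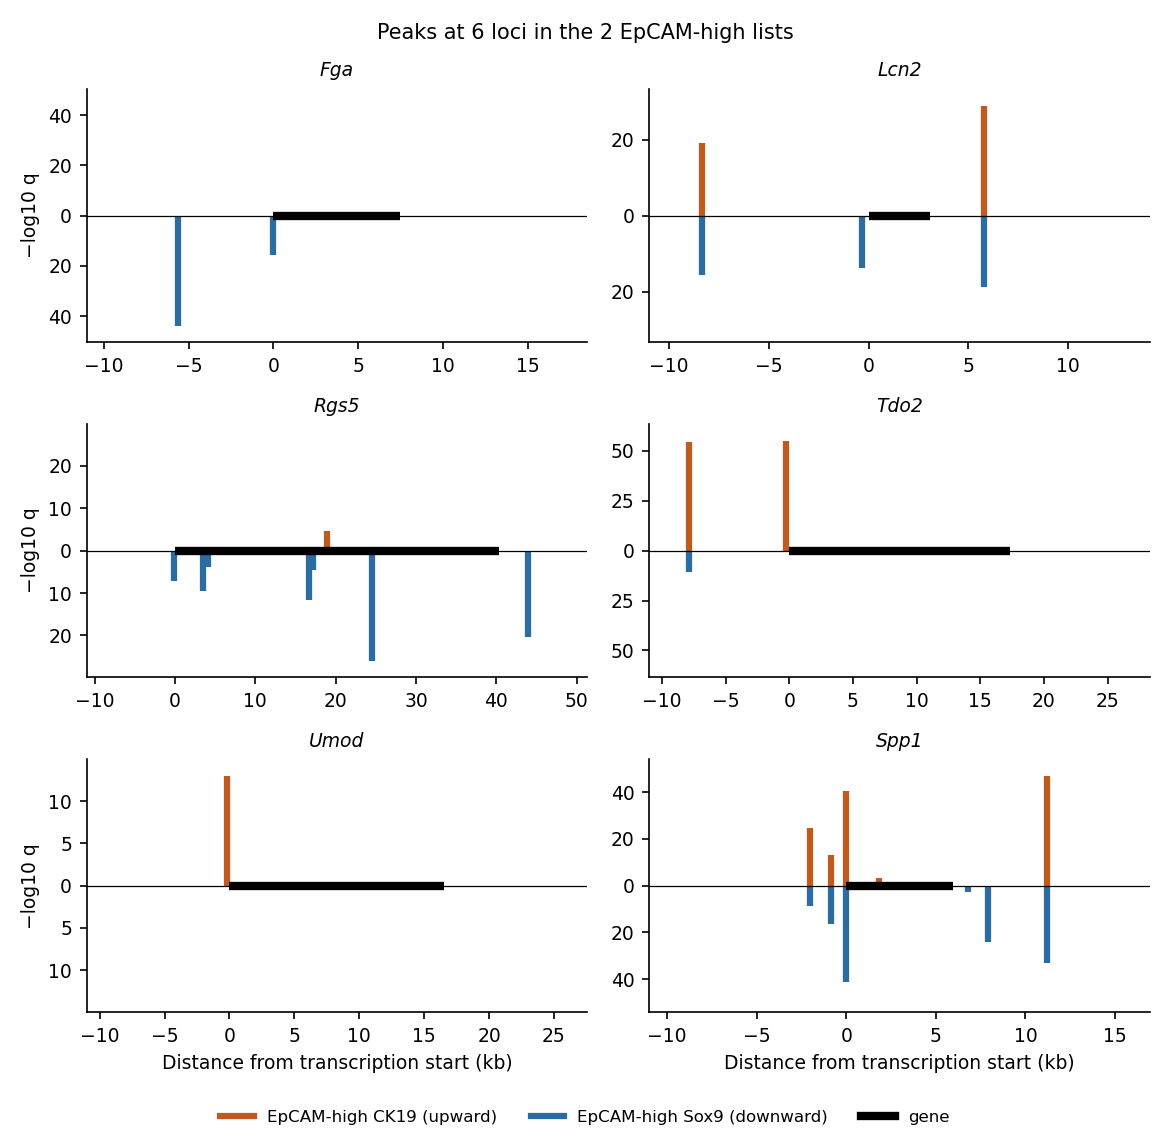
Peaks at 6 loci, with distance from the transcription start in kb on the horizontal axis and the authors' −log10 q as bar height, CK19 list upward and Sox9 list downward, and the gene as a black bar. Fga and Rgs5 carry mostly downward bars, Umod 1 upward bar, and Lcn2, Tdo2 and Spp1 a mix of paired bars and bars on one side.

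Both lists drew most of their strong peaks from the same places. Shared regions made up 51.8% of all regions (51.5 to 52.2), CK19-only regions 23.2% (22.9 to 23.5) and Sox9-only regions 24.95% (24.6 to 25.3). Shared regions were also the widest, with a median of 609 bp against 268 bp for CK19 only and 219 bp for Sox9 only, and they covered 26.3 Mb against 5.37 and 4.73 Mb. In 36469 of the shared regions 1 peak of each list met, and the summits of the strongest peaks lay a median of 35 bp apart. The CK19 list had 55200 autosomal peaks and the Sox9 list 57818. With the strongest 55200 of each list, the classes held 17536, 16297 and 37518 regions, so that the order of CK19 only and Sox9 only turned with the length of the lists.

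Weak and strong peaks fell into different classes. The median −log10 q was 23.6 (CK19 peaks) and 19.6 (Sox9 peaks) in shared regions, 3.84 in CK19-only regions and 6.42 in Sox9-only regions. Of CK19 peaks with −log10 q below 2, 92.8% had no partner in the Sox9 list, and of those at 50 or more 0.55% had none. For Sox9 peaks the same shares were 85.2% and 1.01%. Weak peaks therefore made up much of both one-list classes, and more of the CK19-only class: 2723 of its 17024 regions reached a −log10 q of 10, against 4915 of 18306 in the Sox9-only class. A given −log10 q depends on the depth of its own library, which is unknown, so equal values in the lists do not mean equal signal.

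**Figure D2:**
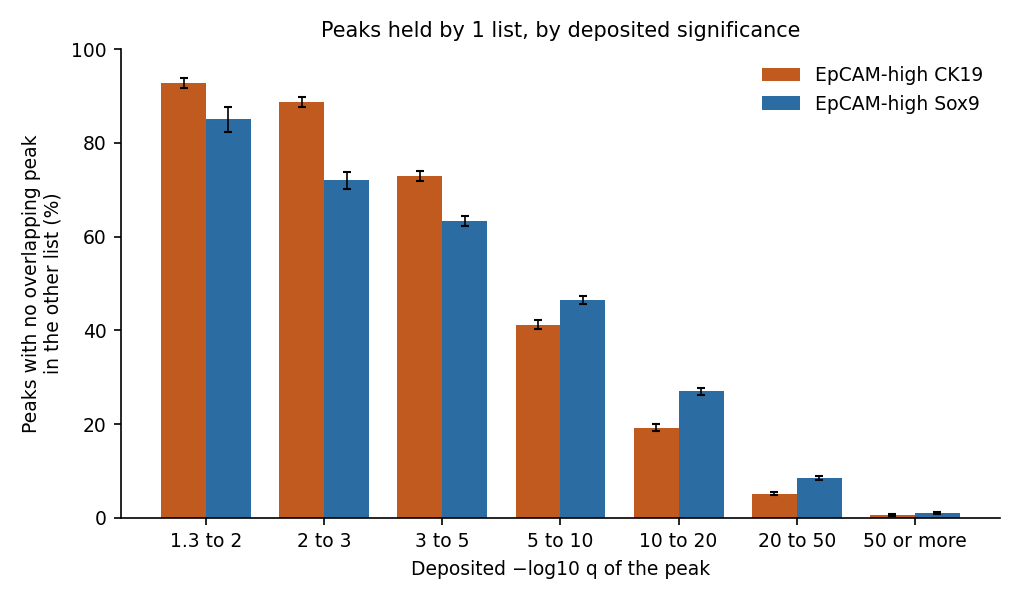
Share of each list's peaks with no overlapping peak in the other list (vertical axis, %, exact 95% intervals), by the authors' −log10 q (horizontal axis, bins). The share falls from 92.8% to 0.55% for CK19 peaks and from 85.2% to 1.01% for Sox9 peaks, and the CK19 bar is the higher one below 5 and the lower one from 5 upward.

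CK19-only regions lay farther from genes than Sox9-only regions. Between protein-coding genes, meaning neither in a gene nor within 1000 bp of its ends, lay 61.3% of CK19-only regions (60.6 to 62.1), 49.0% of Sox9-only regions (48.2 to 49.7) and 36.4% of shared regions. More than 300 kb from any protein-coding gene lay 20.8% of CK19-only, 6.28% of Sox9-only and 2.69% of shared regions. Regions inside genes showed the opposite order, with 33.4% of CK19-only and 44.7% of Sox9-only regions. At gene ends lay 5.25% of CK19-only (4.92 to 5.59), 6.34% of Sox9-only (5.99 to 6.71) and 29.0% of shared regions. Gene ends were also split for genes with a known strand, as shares of all regions of a class. Near the transcription start lay 3.17% of CK19-only, 3.53% of Sox9-only and 22.2% of shared regions. Near the other end lay 1.25%, 1.67% and 2.63%.

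Most of the distance rested on weak peaks. With −log10 q of 10 or more, 54.1% of CK19-only regions (52.2 to 56.0) and 49.9% of Sox9-only regions (48.5 to 51.3) lay between genes, and 7.75% (6.77 to 8.82) and 4.54% (3.97 to 5.16) lay over 300 kb from a gene. With both lists cut to the 38506 strongest peaks, the number in the shortest of the 5 lists, 47.6% and 48.5% lay between genes. The order at gene ends turned in both settings, to 5.25% of CK19-only and 4.15% of Sox9-only regions with −log10 q of 10 or more, and to 10.9% and 6.52% at the shortest length. Cutting the lists also turns a shared region into a one-list region where only the weaker list's peak is lost. CK19-only regions at gene ends rose from 893 to 1012 at the shortest length, while the class fell from 17024 to 9271. The 10.9% therefore includes gene ends with a deposited Sox9 peak.

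Gene density showed the same order. In 1-Mb windows with no protein-coding gene centre, 75.6% of the regions of one list were CK19 only, and in windows with 11 to 20 genes 35.8% were. Among regions with −log10 q of 10 or more, these shares were 49.4% (43.8 to 55.0) and 30.2%, and at the shortest length 58.2% and 50.4%. The slope was therefore present in strong regions and nearly flat at the shortest length.

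**Figure D3:**
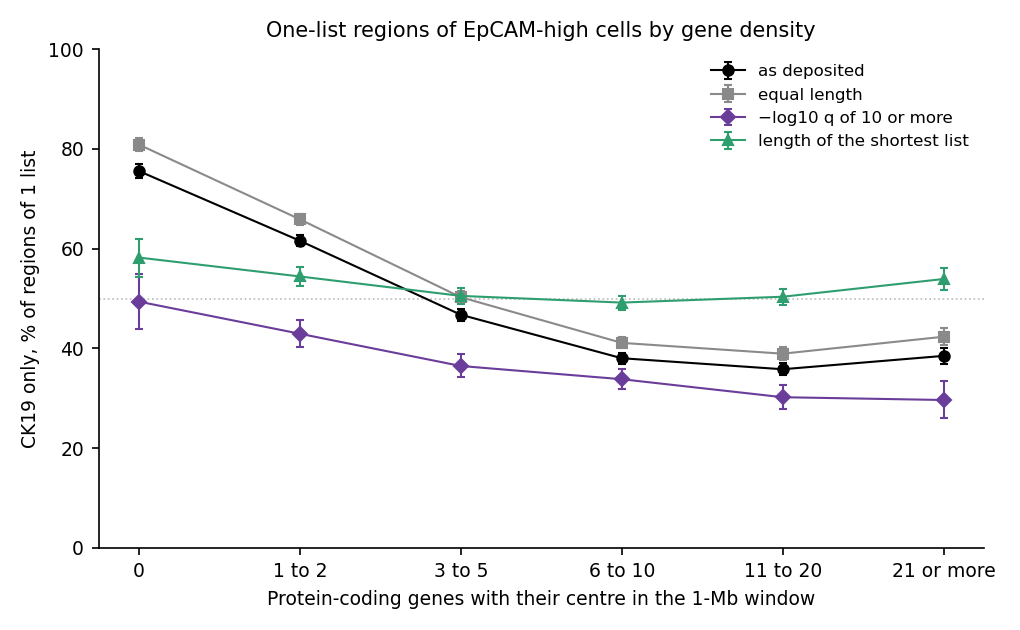
CK19-only regions as a share of all regions of one list (vertical axis, %, exact 95% intervals) by the number of protein-coding genes centred in the 1-Mb window (horizontal axis), for the lists as deposited, at equal length, for regions with −log10 q of 10 or more and at the length of the shortest list. The first 2 lines fall steeply from 75.6% and 80.9% in windows without genes, the third falls from 49.4%, and the last starts at 58.2% and stays near 50%.

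CK19-only regions also stood in longer rows. Runs were counted on the lists as deposited only, where weak peaks made up much of the CK19-only class. Counting neighbouring regions of one class along a chromosome, 149 CK19-only runs and 12 Sox9-only runs had 10 or more regions. The longest CK19-only run had 32 regions over chr9:16731695-18174248, which overlaps no protein-coding gene, and the next lay on chromosomes 16, 15, 3 and 5 with 30, 29, 28 and 27 regions, the one on chromosome 15 over Csmd3. Of regions with −log10 q of 10 or more, the Csmd3 locus had 0 CK19-only and 1 Sox9-only. The longest Sox9-only runs had 13 regions over Ntrk3, a neurotrophin receptor gene, 12 over Mpped2, 12 on chromosome 4 and 11 over Mecom, a zinc finger transcription factor gene. The fifth, also with 11 regions, spanned Dclk1 and Nbea. Of the 5 longest runs, 4 were free of protein-coding genes on the CK19 side and 1 on the Sox9 side. Per autosome, CK19-only regions took from 18.1% of regions (chromosome 7) to 26.8% (chromosome 16), and Sox9-only regions from 19.01% (chromosome 19) to 26.5% (chromosome 1).

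Single windows, also counted on the lists as deposited only and with weak peaks included, gave the same picture with names. The 1-Mb window with the largest CK19-only excess, chr17:76000001-77000000, held 37 CK19-only and 5 Sox9-only regions and no gene. The next were a window over Ndst4 (35 and 4), one with Grm5, a glutamate receptor gene (34 and 3), a cluster of olfactory receptor genes on chromosome 10 (34 and 4) and one with Mgat4c (34 and 5). Each Sox9-only window held genes. They were chr12:35000001-36000000 with Agr2, Agr3 and Ahr (4 CK19-only and 32 Sox9-only regions), a window with Etv6, Cdkn1b and Lrp6 (6 and 33), one with Mecom (1 and 26), one with the Wnt effector Tcf7l1 (3 and 28) and one with Tead1 and Dkk3 (1 and 26).

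The strongest one-list regions lay mostly between genes on the CK19 side, and both between and inside genes on the Sox9 side. The CK19-only region with the highest −log10 q, 300, was chr9:17675135-17676196, 616.1 kb from Chordc1, and 4 of the 10 strongest lay in the same gene-free stretch of chromosome 9. The second, at 144.2, lay 2.51 kb from the olfactory receptor gene Olfr103, and 9 of the 10 lay between genes, the tenth in Ndst4 at 81.1. The strongest Sox9-only region, chr1:47545341-47546141 at 196.8, lay 619.6 kb from Slc39a10. It was followed by one inside Runx2, a transcription factor of bone and mesenchyme, at 112.5, and one 98.23 kb from Agr3 at 104.6. Arhgap28, a GTPase-activating protein gene, held 2 of the 10, at 90.9 and 85.7, Tenm4 held one at 79.5, and one lay 42.4 kb from Dcn, the gene of the matrix protein decorin, at 75.95.

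Gene ends were mostly held in common. Of 20665 autosomal protein-coding genes, 11619 (56.2%) had a peak within 1000 bp of an end in both lists, 628 (3.04%) in the CK19 list alone and 607 (2.94%) in the Sox9 list alone. Calls made both as deposited and at equal length numbered 628 (3.04%) and 548 (2.65%). Equal length keeps every CK19 peak and cuts only the Sox9 list, so no CK19-alone call could be lost there. The 2 numbers are therefore not a like comparison of stability, and the same holds for the list genes that follow. Among the 714 genes of 29 lists of liver, duct, stroma, immune and signalling genes, 29 (4.06%, 2.74 to 5.78) had such a CK19-alone call at both lengths and 38 (5.32%, 3.79 to 7.23) a Sox9-alone call. These lists were chosen with results of these data known, so the shares only describe them. A gene-end call can also turn on where a peak stops: 24 of the 29 and 35 of the 38 lay in a region of one class, and the others in a region that both lists share. Judged by region, 557 of all genes (2.70%) were CK19 only and 576 (2.79%) Sox9 only at an end. At a window of 2500 bp, 9 and 11 of the named genes became positive in both lists.

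The Sox9-alone gene ends included a row of secreted liver and defence proteins. Beside Fga, Fgg, Lcn2 and S100a9 they were Ahsg (fetuin-A, 4.01), Cfb (complement factor B, 3.23), Itih1 (an inter-alpha-trypsin inhibitor chain, 3.23), Klkb1 (plasma kallikrein, 14.8), Cp (ceruloplasmin, 16.7), Saa3 (serum amyloid, 7.72) and Orm1 (orosomucoid, 4.06), the number being the −log10 q. Antigen presentation and inflammation gave H2-Aa (10.8), Cd74 (8.29), against H2-Ab1 on the CK19 side, and Cxcl2 (10.6) and Cd68 (14.0), a lysosomal protein of macrophages. The stellate and smooth muscle list gave Acta2 (6.17), Cnn1 (3.33) and Rgs5 (7.17), against Hand2 and Lum on the CK19 side, and signalling genes gave Fgf2, Pdgfb, Wnt5b, Sfrp1 and Inhbe (4.92, 6.76, 4.06, 7.72 and 10.8). The rest were Gata4, Ptf1a, Hoxd1 and Erg among transcription factors, Cdk6 among cell cycle genes, Fut2 and Muc4 among gut-type genes, and Aldh1a1, Tat, Pkp3, Csmd1 and Ctnna2. The same call at the shortest length was made for 14 of these 35, Fga, Fgg, Lcn2, Klkb1, Cp, Cd68, Cd74, H2-Aa, Cxcl2, Gata4, Cdk6, Fut2, Inhbe and Ctnna2. Of these, Lcn2, Klkb1, Cd68, Cd74 and Cdk6 had a peak in both lists at a window of 2500 bp.

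The CK19-alone gene ends included an enzyme gene, signalling genes and matrix and adhesion genes. Of the 24 in one-class regions, the 9 kept at the shortest length were Tdo2 and Umod, the cadherin gene Cdh11 (13.03), the Notch ligand Dll4 (7.93), the laminin chain Lamb1 (8.27), the TGF-beta-induced matrix protein Tgfbi (9.997), the MSP receptor Mst1r (7.16), the transcription factor Hand2 (7.79), of the stellate and smooth muscle list, and the small Maf factor Mafg (6.73). Weaker peaks marked Kdr, the VEGF receptor (5.23), Cd8a (5.23), Lum of the stellate and smooth muscle list (5.96), Tjp1 (5.97), Agr2 (6.64), Ereg (3.84), the antigen presentation gene H2-Ab1 (3.84), the Wnt antagonists Notum (4.52) and Dkk1 (1.98), Hoxc6 (3.18), Dab1 (3.18), Dpp10 (2.56), Cntnap2 (1.98), Zeb2 (1.93) and Rbl1 (2.56). Of the 9 kept, Dll4, Mst1r and Mafg had a peak in both lists at a window of 2500 bp. Both lists had a peak in an annotated promoter window of Zeb2, Tjp1, Dab1 and Mafg, and, among the Sox9-alone genes, of Cdk6 and Aldh1a1. At Cdh11 the CK19-only class also held a region in the gene body at 49.1, beside shared regions of which one had 133.1 in CK19 peaks and 21.2 in Sox9 peaks. The calls in shared regions were Gata3, Lef1, Wnt5a, Tjp3 and Cd79a for CK19, of which Cd79a was lost at the shortest length, and Cgn, Cldn6 and Lamb3 for Sox9.

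The 10 genes per direction with the strongest gene-end peak of one list were mostly calls of that kind. All 10 on the CK19 side, Aktip, Cnot6l, Lmbrd1, Msantd2, Nudt16, Tiam1, Tprgl, Trmt11, Vmn2r87 and 4930453N24Rik, lay in shared regions. On the Sox9 side 7 of 10 did, among them Cldn6 at 89.6. The remaining 3 were Ctnna2 (32.8), Gm829 (37.9) and Gpn1 (35.7).

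Counting every region within 10 kb of a gene extended the comparison beyond gene ends. Over all 20665 genes these loci held 7910 CK19-only, 11120 Sox9-only and 27274 shared regions, and 3279 genes (15.9%) had more CK19-only and 5248 (25.4%) more Sox9-only regions. Of all locus regions, 17.1% were CK19 only and 24.0% Sox9 only, the shares beside which those of a list are set here. The totals were 5791 and 5397 at the shortest length, the opposite order, and among regions with −log10 q of 10 or more they were 1528 and 2961. Longer genes had more regions of one list, and in genes over 300 kb the shares of both directions were close, at 45.4% and 45.8%. The median gene had as many regions of one class as of the other. Of 19 housekeeping genes 18 had a gene-end peak in both lists, and even this list held 0 CK19-only and 17 Sox9-only regions.

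Plasma protein, coagulation and acute phase genes held few CK19-only regions. Of their regions, 3.92%, 10.8% and 5.085% were CK19 only, against 17.1% of all genes. Sox9-only shares were 39.2%, 32.4% and 33.9%, against 24.0%. A low CK19-only share was not particular to these lists, as housekeeping genes had 0% and 30.4%. The 29 plasma protein genes had 2 CK19-only, 20 Sox9-only and 29 shared regions, and 14 of them had more Sox9-only regions while none had more CK19-only. Alb (albumin), Ttr (transthyretin) and Cfb each had 0 CK19-only and 2 Sox9-only regions, Trf (transferrin) 0 and 2, and Ahsg 0 and 3. The 19 coagulation genes had 4 and 12, with 3 Sox9-only regions at F11 and 2 each at Fga and Fgg, and Plg (plasminogen) as the exception with 2 CK19-only and none of Sox9. The 25 acute phase genes had 3 and 20, led by Steap4 with 5 and Saa4 with 3 Sox9-only regions, and 14 of them had more Sox9-only and 2 more CK19-only regions. Orm2 and Orm3 shared the same strong CK19-only region. Likewise, Fga and Fgg shared the Sox9-only region between them, and the Sox9-only regions of Saa3 also lay within 10 kb of Saa4. Such regions count at each gene in the numbers per gene. The median difference per gene was 0 in the first and second of these lists and 1 in the third. At the shortest length the counts were 5 and 11, 5 and 10, and 6 and 11, and with −log10 q of 10 or more 0 and 8, 1 and 8, and 2 and 4. Over all genes they were 5791 and 5397 at the shortest length, and 1528 and 2961 with −log10 q of 10 or more. The acute phase list thus had about the balance of all genes in strong regions.

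Other hepatocyte lists had closer numbers as deposited and more CK19-only regions at the shortest length. The 29 metabolic enzymes had 12 CK19-only and 10 Sox9-only regions, with Cps1 at 3 and 0, Cyp2c29 at 2 and 0 and Cyp7b1 at 0 and 3. The 20 hepatocyte transcription factors had 11 and 15, and 18 of them had a gene-end peak in both lists. Oncofetal genes had 21 CK19-only and 13 Sox9-only regions, including Lin28b with 3 and 0, Igf2 with 2 and 0 and Spink1 with 2 and 0, and 8 of these 22 genes had more CK19-only regions against 4 with more Sox9-only. As deposited, CK19-only shares were 18.5% for enzymes, 9.82% for transcription factors and 25.9% for oncofetal genes, against 17.1% of all genes. Sox9-only shares were 15.4%, 13.4% and 16.05%, against 24.0%. At the shortest length metabolic enzymes had 14 and 4, hepatocyte transcription factors 19 and 9 and oncofetal genes 14 and 6. These counts include regions whose deposited Sox9 peak was cut away. Foxa2, for instance, had 0 CK19-only and 4 shared regions as deposited, and 2 CK19-only regions at the shortest length.

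Duct and epithelial genes were mostly open at their ends in both lists. The regions around them had Sox9-only shares near the 24.0% of all genes, at 24.6% for biliary, 25.4% for junction and 23.0% for TEAD and YAP genes, and lower CK19-only shares, at 11.4%, 8.45% and 5.04% against 17.1%. All 27 biliary genes had a gene-end peak in both lists, and their loci held 19 CK19-only, 41 Sox9-only and 107 shared regions. Bicc1, an RNA-binding protein gene of polycystic disease, had 1 and 5, Pkhd1 (fibrocystin) 0 and 4, and Krt8 0 and 3. Cftr, with 4 and 2, Prom1, with 2 and 0, and Sox9, Sox4 and Cldn7, with 1 and 0 each, had more CK19-only regions. Junction genes held 12 and 36, with Cdh1 (E-cadherin) at 1 and 5. The TEAD and YAP list, the Hippo pathway that controls organ size, held 7 and 32, of which Tead1 alone had 0 and 9, Wwc1 1 and 5 and Vgll4 0 and 4. With the shortest lists the counts were 19 and 25, 13 and 14, and 16 and 16, so junction and TEAD genes had near-equal numbers there.

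Matrix and integrin genes had the largest Sox9-only number among the lists with more Sox9-only than CK19-only regions both as deposited and at the shortest length. Their 30 loci held 24 CK19-only and 72 Sox9-only regions, 18 genes had more Sox9-only and 5 more CK19-only regions, and the shortest length gave 28 and 49. As deposited, 10.4% of their regions were CK19 only and 31.3% Sox9 only, against 17.1% and 24.0% of all genes. Among regions with −log10 q of 10 or more the counts were 9 and 28, against 1528 and 2961 of all genes. Gpc6, a cell-surface heparan sulfate proteoglycan, contributed 2 and 21, Col4a2 (collagen IV) 1 and 6, Col18a1 0 and 6, Itgav (integrin alpha V) 2 and 5 and Timp3 0 and 4, whereas Lamb1 had 3 and 1. Growth factor genes held 32 and 73 (13.4% and 30.5% of their regions), with Igf1r at 1 and 7, Fgf1 at 1 and 7, Igf1 at 1 and 6 and Pdgfb at 0 and 5, and at the shortest length 36 and 27. Notch genes held 15 and 28, with Notch2 at 2 and 8 and Dll4 at 3 and 0, and Wnt genes 23 and 43, with Tcf7l2 at 0 and 6, Tcf7l1 at 0 and 5, Lrp6 at 1 and 5 and Rspo3 at 3 and 0. The shares were close to those of all genes, at 13.8% CK19 only and 25.7% Sox9 only for Notch and 15.3% and 28.7% for Wnt genes. Both pairs of counts at the shortest length were 16 and 12, and 16 and 23.

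Long neuronal genes, which code for synaptic and adhesion proteins and span a median of 1174 kb, held the largest CK19-only number. Their 26 loci had 383 CK19-only, 160 Sox9-only and 234 shared regions, 20 genes had more CK19-only regions, and the median difference per gene was 5.5 regions toward CK19. The shares were 49.3% CK19 only and 20.6% Sox9 only, against 17.1% and 24.0% of all genes. Dlg2 (a postsynaptic scaffold) had 48 and 9, Macrod2 35 and 14, Cntnap2 28 and 6, Csmd3 26 and 6, Dcc (a netrin receptor) 25 and 3, and Ptprd 23 and 3. Ctnna2, with 4 and 11, and Rbfox1, with 0 and 5, went the other way. Genes over 300 kb, of any list or none and counted gene by gene, held 2478 CK19-only, 2168 Sox9-only and 3202 shared regions. In the neuronal list, regions with −log10 q of 10 or more reversed the order, to 28 and 40, and at the shortest length it was 86 and 61. Strong regions of all genes also had more Sox9-only than CK19-only, at 1528 CK19-only and 2961 Sox9-only, so that order was not particular to this list. Hox clusters were nearly closed in both lists: 27 of 32 genes had no gene-end peak, and their loci held 5 CK19-only, 1 Sox9-only and 4 shared regions.

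The remaining lists are given by their counts, with shares of their regions in brackets, against 17.1% and 24.0% of all genes. Chemokine genes had 12 CK19-only and 33 Sox9-only regions (12.1% and 33.3%), and interferon and antigen presentation genes 5 and 15 (9.09% and 27.3%). Gut-type genes had 5 and 17 (9.62% and 32.7%) and foregut factors 25 and 39 (15.1% and 23.5%). TGF-beta genes had 35 and 49 (18.6% and 26.1%), EMT genes 16 and 23 (18.8% and 27.1%) and AP-1 factors 4 and 8 (7.27% and 14.55%). E2F and cell cycle genes had 5 and 12 (7.14% and 17.1%), and Rb family, CDK inhibitor and cyclin genes 12 and 13 (14.6% and 15.85%). Of the 30 E2F and cell cycle genes, 29 had a gene-end peak in both lists. Among lists for other cell types, endothelial genes had 10 and 16 (18.2% and 29.1%) and macrophage genes 4 and 9 (13.8% and 31.0%). Lymphocyte genes had 2 and 5 (10% and 25%), and stellate and smooth muscle genes 18 and 17 (29.5% and 27.9%). In these 4 lists, 12 of 18, 18 of 23, 14 of 19 and 11 of 20 genes had no gene-end peak in either list. The part of such cells in any difference was not tested. In bulk data, fewer cells with an open site and less opening per cell cannot be told apart.

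**Figure D4:**
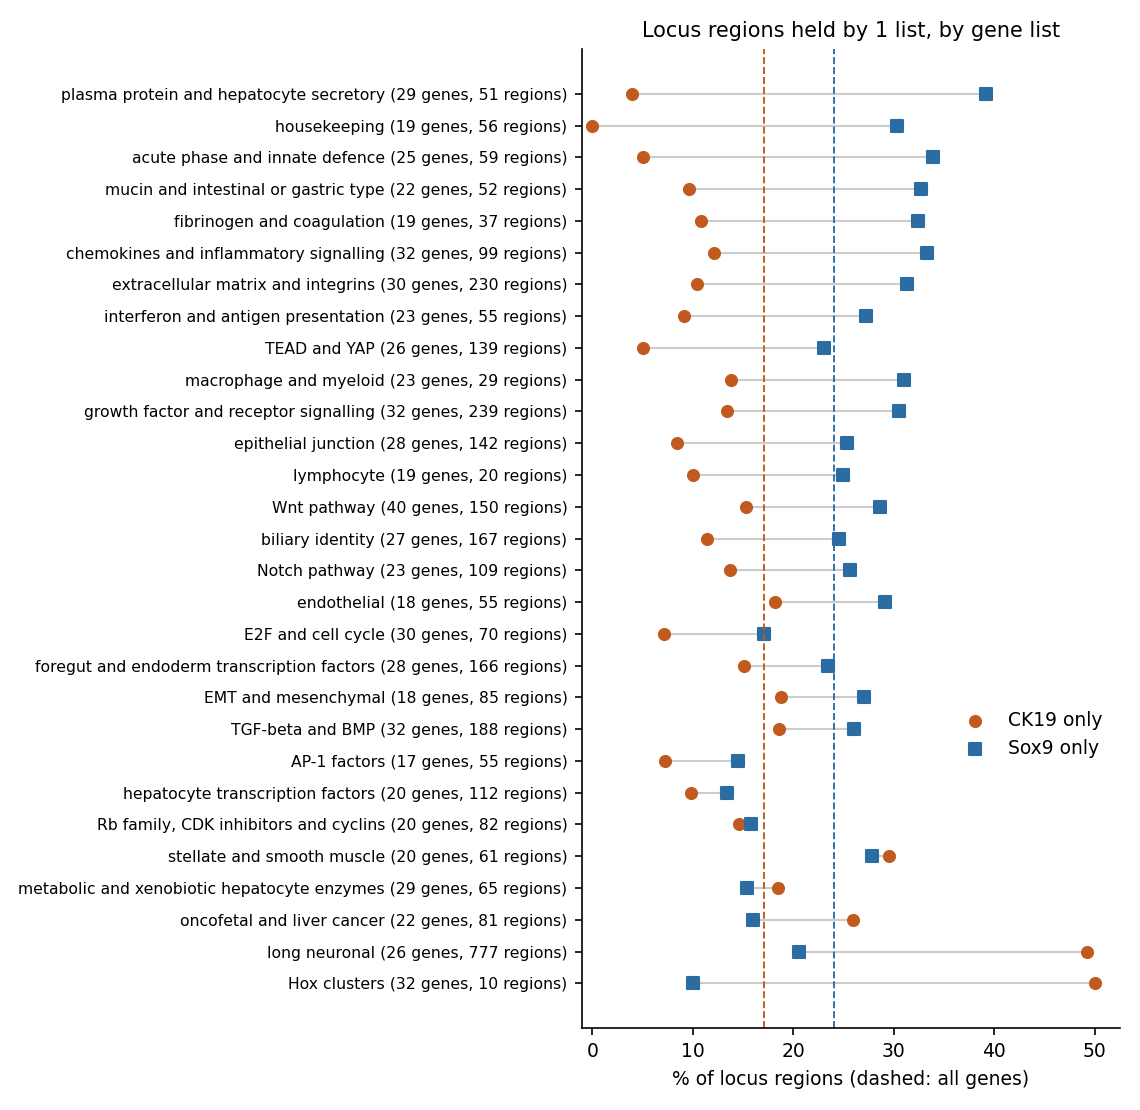
CK19-only (circles) and Sox9-only regions (squares) as a share of all regions within 10 kb of the genes of each list (horizontal axis, %), with dashed lines for all protein-coding genes. Plasma protein, housekeeping and acute phase genes are among the lists farthest to the Sox9 side, and long neuronal genes and Hox clusters lie on the CK19 side, the last with 10 regions in all.

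Single genes with the largest excess were long on both sides. At equal length the 10 genes with the largest CK19-only excess were Dlg2, Macrod2, Robo2, Gpc5, Cntnap2, Nav3, Csmd3, Dcc, Ptprd and Edil3. Robo2, an axon guidance receptor gene, had 34 CK19-only and 7 Sox9-only regions as deposited, and Nav3 25 and 3. On the Sox9 side they were Gpc6, Etl4, Mcc, Mecom, Nav2, App, Plcb4, Filip1l, Syn3 and Zbtb16. Etl4 had 1 CK19-only and 19 Sox9-only regions, Mcc 1 and 18, Mecom 0 and 18, App (the amyloid precursor protein) 0 and 14 and Zbtb16 1 and 13. At the shortest length Mcc had 0 and 16, Mecom 0 and 10 and Nav2 1 and 12, while Filip1l had 6 and 6. On the CK19 side Robo2 had 7 and 0, Dlg2 16 and 3 and Macrod2 13 and 5, whereas Csmd3, Edil3 and Dcc had 0 and 1, 0 and 1, and 1 and 0.

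Some genes had hardly a region outside one class. Among genes with at least 6 regions at equal length, the highest CK19-only shares at that length were at Ndst4 (18 CK19-only and 0 Sox9-only regions), Fstl5 (13 and 0), Cdh12 (14 and 0), Trhde (13 and 0), Iqcm (12 and 0), Galnt13, Adgrb3, Khdrbs2, Gabrb2 and Sorcs1. As deposited, Cdh12 and Trhde also had 3 Sox9-only regions each. The highest Sox9-only shares at equal length were at Rgs5, Scml4, Vwc2, Enox1, Prlr, Daam2, Arhgap28, Fmnl2, Mpped2 and F830045P16Rik. As deposited, Rgs5 had 7 Sox9-only regions with −log10 q from 3.77 to 25.9, and 1 CK19-only region at 4.52. Prlr, the prolactin receptor, had 8 Sox9-only regions and no other, and Daam2, a formin of Wnt signalling, 6, of which 5 reached a −log10 q of 10. Fmnl2, also a formin, had 10 beside 1 shared region, 7 of them at 10 or more. In the CK19-only group Adgrb3 and Ndst4 had 2 regions each at 10 or more, and Cdh12, Khdrbs2, Trhde, Gabrb2, Galnt13, Fstl5, Iqcm and Sorcs1 had none.

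Genes ranked by strong regions alone, a ranking chosen after the values were seen, gave partly other names. With −log10 q of 10 or more, Slc8a1, the sodium-calcium exchanger gene, had 7 CK19-only and no Sox9-only region, Cdh20 6 and 0, Robo2 5 and 0, Sema3d, a semaphorin gene, 5 and 0, Dlg2 7 and 3, and Atxn7, Epb41l3 and Rai14 4 and 0 each. On the Sox9 side Mcc had 0 and 10, Nav2 0 and 8, Gpc6 1 and 8, the ETS factor gene Ets1 0 and 7, Itpr1 and Fmnl2 0 and 7, and App, Arhgap28, Astn2 and Ppm1h 0 and 6.

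Regions of one list were found less in the 3 further lists than shared regions were. A peak in the Tumor Sox9 or either Prog-like list overlapped 67.0% of shared regions (66.6 to 67.5), 31.1% of Sox9-only regions (30.4 to 31.8) and 20.98% of CK19-only regions (20.4 to 21.6). Shared regions were also wider, as given above, and the part of width in these shares was not tested. The Tumor Sox9 list overlapped 18.6% of Sox9-only and 10.2% of CK19-only regions. The name did not sort the Prog-like lists: Prog-like CK19 overlapped 13.3% of CK19-only and 15.8% of Sox9-only regions, and Prog-like Sox9 11.2% and 14.5%. Over 300 kb from genes any further list overlapped 8.40% of CK19-only and 15.2% of Sox9-only regions, and at gene ends 47.5% and 52.1%.

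In regions with −log10 q of 10 or more this order changed for the Prog-like lists. Prog-like CK19 then overlapped 24.5% of CK19-only (22.9 to 26.2) and 17.3% of Sox9-only regions (16.2 to 18.4), and Prog-like Sox9 20.2% and 16.2%. Tumor Sox9 kept the order, with 17.8% (16.4 to 19.3) of CK19-only and 23.9% (22.7 to 25.1) of Sox9-only regions. At the shortest length, the Tumor Sox9 list overlapped 24.1% of CK19-only and 25.3% of Sox9-only regions, so the difference seen as deposited was small there.

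**Figure D5:**
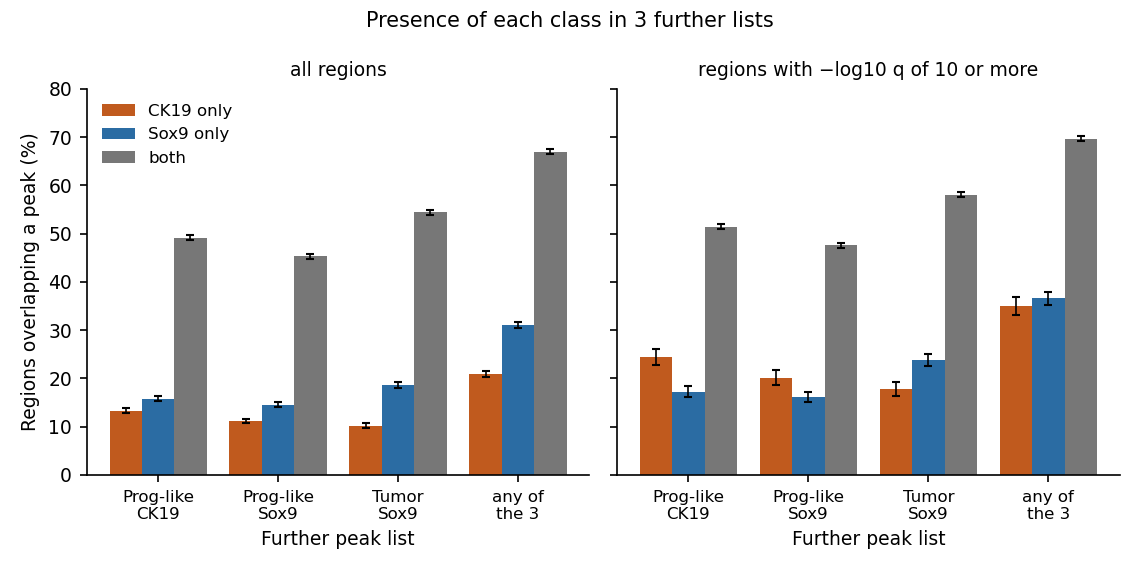
Share of CK19-only, Sox9-only and shared regions (labelled both) that overlap a peak of each further list or of any (vertical axis, %, exact 95% intervals), for all regions on the left and for regions with −log10 q of 10 or more on the right. Grey bars for shared regions are the highest throughout, and the order of the other bars at the Prog-like lists differs between the panels.

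Promoter sequence was compared over 20085 RefSeq promoter windows of 300 bases. A peak of the CK19 list alone overlapped 362 windows, of the Sox9 list alone 431 and of both 10789, and 8503 had none. Windows open in one list had a GC content between those open in both and those in neither: medians were 56.7% (CK19), 57.7% (Sox9), 62.3% (both) and 48.7% (none). CpG dinucleotides numbered 15, 12, 22 and 3 per window. Both one-list groups were thus less CpG-rich than the promoters the lists share.

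Some motifs had different shares in the CK19-alone and Sox9-alone windows, and others had close ones. AP-1 (TGANTCA), bound by Fos and Jun factors, was in 11.1% of Sox9-alone windows (8.33 to 14.5), 6.63% of CK19-alone windows (4.29 to 9.70), 4.71% of windows open in both and 7.06% of all. CEBP (TTGCNNAA), bound by factors of liver and acute phase genes, was in 12.1% (9.14 to 15.5), 7.18% (4.75 to 10.4), 7.56% and 10.3%. HNF4 (CAAAGTCC), bound by the hepatocyte factor Hnf4a, was in 4.42% of CK19-alone windows (2.55 to 7.08; 16 of 362), 1.39% of Sox9-alone windows (0.51 to 3.01; 6 of 431) and 1.44% of all. The 16 HNF4 windows lay at genes such as Slc3a1, Nat8, Col8a1, Ripk3 and Eya4, the last counted with 2 overlapping windows. ETS (CCGGAA) had the widest gap of the 12, at 19.9% of CK19-alone (15.9 to 24.4), 13.9% of Sox9-alone (10.8 to 17.6), 29.5% of windows open in both and 19.1% of all. The intervals of the CK19-alone and Sox9-alone windows overlap for AP-1, CEBP, ETS, HNF4 and GRHL. GRHL (AACNGGTT), bound by epithelial grainyhead factors, was in 3.32%, 1.16% and 1.95%. HNF1 (GTTAAT), at 7.74% and 7.43%, and TEAD (GGAATG), at 12.2% and 11.6%, were near equal in the CK19-alone and Sox9-alone windows, against 6.23% and 13.4% of all windows. These short matches, read on both strands, are a description of the letters and not of bound factors, and windows with no peak, which are AT-rich, held CEBP in 13.8% and AP-1 in 9.84%.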

How the data were processed

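The data are narrowPeak lists of bulk ATAC-seq peaks, deposited by the authors as 1 list per set. Tools named in the submitters' processing notes are deepTools, HOMER, MACS2 and Bowtie 1.1.2, on build mm10. The sources used here give neither their settings nor whether libraries were pooled, and depth is unknown. Each peak carries the authors' score, fold over background (a ratio), −log10 p and −log10 q, used within a list to rank or filter peaks, and a summit offset. Of 56932 CK19 and 59454 Sox9 peaks, 55200 and 57818 lie on autosomes. They were merged and classed with Python 3.11.15, numpy 2.4.6, pandas 2.3.3, scipy 1.17.1 and matplotlib 3.10.9, after testing on simulated peaks.

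Positions and loci refer to 20665 autosomal protein-coding RefSeq genes (GRCm38.p6, 16457 with a strand). At equal length, the strongest peaks by −log10 p were kept, which left the CK19 list whole and shortened only the Sox9 list. The members and the 29 gene lists (714 of 726 genes on autosomes) were chosen with earlier results of these data known. Named genes are fixed markers, list genes whose ends only one list marks at both lengths, and the top 10 genes or regions and top 5 windows per direction by excess, share or −log10 q. Regions in loci of neighbouring genes were counted once per list. Alternatives were list length, a −log10 q of at least 5, 50% overlap, merging within 200 bp, a 2500-bp window, a 50-kb flank, all chromosomes and, chosen after seeing the data, one-list regions with −log10 q of 10 or more. Distance, density and run summaries were also added after seeing the data.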

Additional observations from a re-analysis of the deposited data

Results flagged for a closer look

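Chromosomes X and Y and unplaced contigs were left out of the comparison, and both lists have peaks there. The CK19 list had 1632 peaks on chromosome X and the Sox9 list 1558. On chromosome Y the Sox9 list had 10 peaks and the CK19 list 1. On unplaced contigs the CK19 list had 99 peaks and the Sox9 list 68. Peaks are listed only above a caller's threshold, so these numbers have no background level beside them.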

How the results depend on the processing

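No paired analysis was possible because each set has 1 peak list. Differences below are Sox9-only minus CK19-only regions at the loci of a list, and the cause of each change was not tested. At equal length the shared share was 52.58% and the Tumor Sox9 overlap of Sox9-only regions 19.63%, and the difference became -2 for the Rb family list and -2 for Dpp10. At the shortest length the shared share was 61.8%, the one-list classes 9271 (CK19) and 8760 (Sox9), the CK19-only share between genes 47.59% and the Tumor Sox9 overlap 24.11% (CK19 only) and 25.3% (Sox9 only). The differences there were 6 for plasma protein, 5 for coagulation, 5 for acute phase, 21 for matrix, -25 for long neuronal and 4 for housekeeping genes. The sign turned at that length for hepatocyte transcription factors (-10), Notch (-4), TGF-beta (-5), endothelial (-3), E2F (-3), Rb family (-4), growth factor (-9), foregut (-9) and gut-type genes (-6), and for Muc4 (-2), Aldh1a1 (-1), Cp (-1) and Cntnap2 (1). One-list regions at the shortest length include deposited shared regions that lost only the weaker list's peak.

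With −log10 q of at least 5 in both lists the shared share was 60.66%, the CK19-only class 9085, the share between genes 50.46% (CK19 only) and 47.89% (Sox9 only), and the Tumor Sox9 overlap 18.77% and 22.28%. The differences were 7 for plasma protein, -5 for long neuronal and 8 for housekeeping genes, and that of the Rb family list turned to -2. With 50% overlap the shared share was 51.1% and the Tumor Sox9 overlap 9.463% and 17.78%. Merging within 200 bp gave 52.34% shared. A 2500-bp window left 59.76% of CK19-only and 46.72% of Sox9-only regions between genes. A 50-kb flank gave 79 for matrix genes and turned metabolic enzymes (14), stellate (10) and oncofetal genes (2). One-list regions with −log10 q of 10 or more gave 54.09% and 49.93% between genes, Tumor Sox9 overlaps of 17.81% and 23.87%, and differences of 8 for plasma protein, 2 for acute phase, 19 for matrix and 3 for housekeeping genes, with long neuronal (12) and stellate genes (1) turned. With all chromosomes included, all 52 results kept direction and size. Leaving out a replicate was not possible with 1 list per set.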
